A study of Homo sapiens with 18 samples.

Results

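Interferon-stimulated genes were examined in A549 cells, a human lung adenocarcinoma (NSCLC) line, treated with sodium propionate (SP). The list holds 38 genes known to be induced by interferon. They were chosen by name, with earlier results of these data known. All 38 were found among the 61541 genes listed in the count tables by matching symbols to the GENCODE annotation of GRCh38. RNA-seq counts came from 2 tables with 9 libraries each. The first holds untreated control cells at 3 days, and cells that had received SP at 5 mM over 3 or over 12 days. The second holds untreated control cells at 24 h and cells given 5 mM SP for 3 or 24 h. Each of the 6 groups had 3 libraries, all from wild-type A549 cells grown in high-glucose DMEM with 10% fetal bovine serum. SP 12 days was compared with the control at 3 days, and SP 3 h with the control at 24 h, and the effects of SP and of time cannot be told apart in those comparisons. The libraries of a group are numbered replicates. The labels do not say whether they were separate cultures, and p-values measure the spread between these libraries only.

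Interferons are secreted in response to viral nucleic acid. Type I and type III interferons bind their receptors and activate the kinases JAK1 and TYK2, which phosphorylate STAT transcription factors. With IRF9 these form the complex ISGF3, which binds the interferon-stimulated response element in promoters and turns on genes whose products block viral entry, translation, replication and release. Several of these genes are also expressed at a basal level in cells that have not met interferon, lung epithelium included.

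Promoter sequence was taken from RefSeq windows that run from 250 bases before to 50 bases after a start site (GRCh38.p14). A window was found for 30 of the 38 members, 41 windows in all. The motif searched was the core of the response element, GAAANNGAA, which reads TTCNNTTTC on the other strand, and overlapping matches were counted separately. It was found in 21 of the 30 members (70%) and in 9.9% of 27305 genes with a window. When 1 more A was required after the motif it was found in 20 members (66.7%) and in 4.4% of all genes. The plot of motif places shows where they lie. The promoter stretches below are those of 4 genes that were higher and 2 that were lower at 24 h, 3 days and 12 days, and of SAMD9 and DDX60. They are printed 5′ to 3′ on the strand of the gene, and capitals mark the motif on either strand.
ISG15 (chr1:1013369-1013419, + strand): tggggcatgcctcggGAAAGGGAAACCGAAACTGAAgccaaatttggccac
IFI6 (chr1:27672262-27672363, - strand): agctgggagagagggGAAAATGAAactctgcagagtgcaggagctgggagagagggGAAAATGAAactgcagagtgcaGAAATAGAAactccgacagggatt
IFIT1 (chr10:89392493-89392544, + strand): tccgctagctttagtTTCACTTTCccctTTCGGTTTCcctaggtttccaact
BST2 (chr19:17405731-17405775, - strand): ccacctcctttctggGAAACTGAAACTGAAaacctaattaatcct
SAMD9 (chr7:93118092-93118130, - strand): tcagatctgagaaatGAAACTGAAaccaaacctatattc
IFIT3 (chr10:89332415-89332502, + strand): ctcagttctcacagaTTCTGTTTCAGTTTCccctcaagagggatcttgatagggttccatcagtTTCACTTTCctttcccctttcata
PARP14 (chr3:122680795-122680833, + strand): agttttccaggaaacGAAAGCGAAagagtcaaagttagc
DDX60 (chr4:168318782-168318855, - strand): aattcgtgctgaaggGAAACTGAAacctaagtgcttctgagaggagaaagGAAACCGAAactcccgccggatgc

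**Figure D1:**
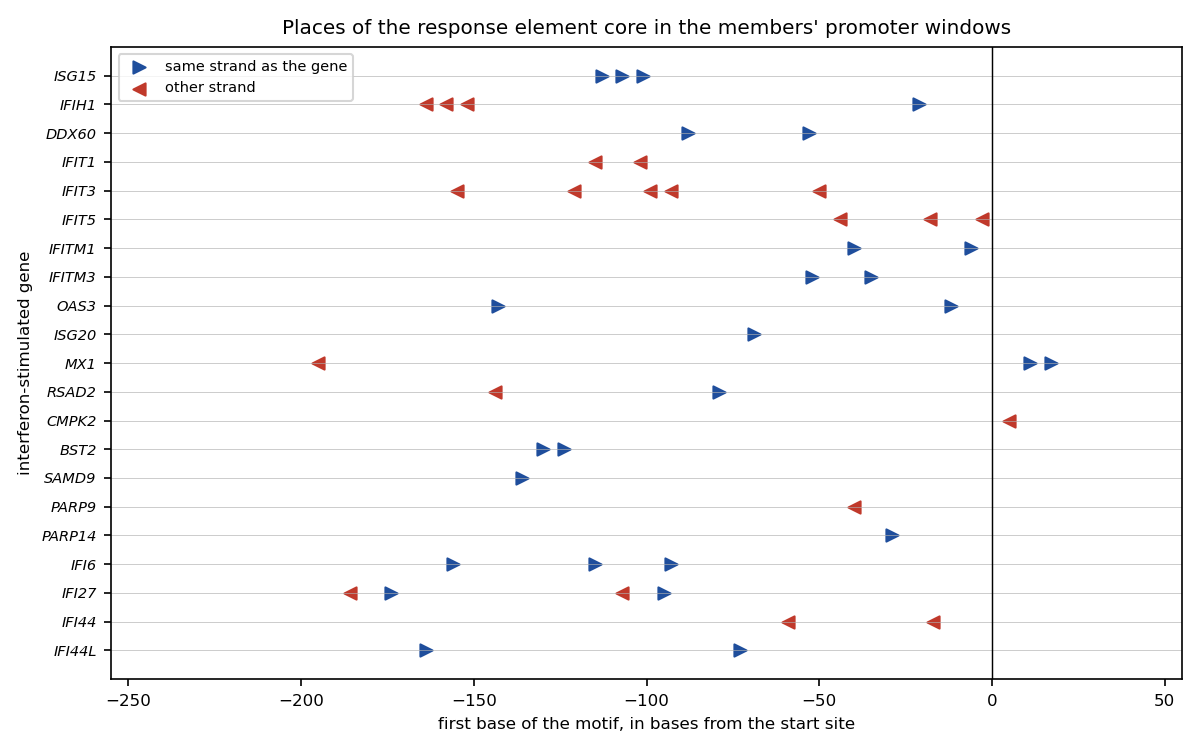
Places of the response element core in the promoter windows of the 21 members that hold it. The x axis gives the first base of each match in bases from the RefSeq start site, for every start site a gene has, and arrows give the strand. Most matches lie before the start site, and those of MX1 and CMPK2 that lie to the right of the line are after it.

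Both kinds of change were seen in members with the motif. At 24 h 5 of 5 members with a window that rose held it, and 3 of 5 that fell. Among tested members that passed in neither direction at 24 h, 9 of 15 held it. Of the members with a window that rose at 3 days, 5 of 6 held it, and of those that fell, 4 of 7. Of those tested that passed in neither direction at 3 days, 9 of 13 held it. At 12 days the counts were 8 of 10 and 6 of 10, and among tested members that passed in neither direction 4 of 6. A match describes the letters in the window only.

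Counted reads per library were between 14187401 and 43765330, and the 38 members together took 0.0381% to 0.0567% of them. A gene was tested where it passed edgeR's filter on low counts, which left 17377 genes and 32 members in the table of 3 h and 24 h, and 17775 genes and 33 members in the table of 3 and 12 days. Levels are given as CPM (read counts scaled by library size and TMM factor) to compare groups, and as RPKM (CPM divided by exon length) to compare genes. A gene rose or fell where the edgeR quasi-likelihood test gave a Benjamini-Hochberg adjusted p under 0.05 over all genes tested. The thresholds of the study, an adjusted p under 0.0001 with a fold change of at least 2, were counted separately. In the epithelial check, KRT8, KRT18, KRT19, EPCAM and CDH1 were present in every group. Their summed level was 5999 to 7731 CPM in the control at 3 days and 6850 to 8374 CPM in the control at 24 h. All 5 rose at 24 h, 3 days and 12 days. Among the 6 leukocyte markers, CD3E had 0 reads in all libraries and PTPRC and LYZ did not pass the filter. Of the 2 leukocyte markers tested, CD14 rose by 2.22 (log2) at 24 h and 1.08 at 3 days. The other passed at neither time, and neither marker passed at 12 days. The summed leukocyte level was 5.72 to 8.24 CPM in the control at 24 h and 19.2 to 22.2 at SP 24 h, and 19.0 to 20.8 in the control at 3 days against 36.9 to 40.3 at SP 3 days and 15.2 to 29.7 at SP 12 days. Of 5 fibroblast markers, 2 of 3 tested rose at 24 h, and 1 of 2 tested at 3 days and at 12 days. COL1A1 rose at all of these times, and DCN and COL1A2 did not pass the filter. The summed fibroblast level was 5.93 to 22.1 CPM in the control at 24 h and 62.0 to 89.9 at SP 24 h. It was 14.2 to 15.3 in the control at 3 days, 58.7 to 69.8 at SP 3 days and 30.1 to 55.8 at SP 12 days. Of 3 endothelial markers, 1 of 2 tested fell at 3 days and at 12 days, and the 1 tested at 24 h did not pass. Their summed level was 2.44 to 2.88 CPM in the control at 3 days, 1.59 to 1.97 at SP 3 days and 1.25 to 1.46 at SP 12 days. The part of these markers in the changes below was not tested. In bulk RNA, fewer cells with a transcript and less of it per cell cannot be told apart.

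Without SP, the members differed widely in level. Per length, IFITM2, which restricts viral entry, was highest in both controls, at 33.0 ± 2.09 RPKM (SD, n = 3) at 3 days and 11.0 ± 0.279 at 24 h. IFI35, a signalling adaptor, came next at 17.9 ± 0.970 and 10.5 ± 1.20, and its libraries overlapped those of IFITM2 only at 24 h. IFI6, a membrane protein of the endoplasmic reticulum and mitochondria, had 9.53 ± 0.980 and 5.04 ± 0.478 RPKM. At the low end, OAS2, RSAD2, CMPK2, IFI44L and XAF1 passed the filter in neither table. XAF1, a proapoptotic factor, had 1 read in each of 2 libraries and 0 in the other 16. RSAD2 (viperin) had 0 reads in the control at 24 h, where 3 reads over the group would equal 0.0447 CPM. The strongly inducible antiviral genes MX1 and IFI27 were also low, at 0.161 ± 0.0248 and 0.0877 ± 0.0672 RPKM in the control at 3 days. Levels in the 2 tables were scaled separately, so the difference between the controls is not compared by test.

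**Figure D2:**
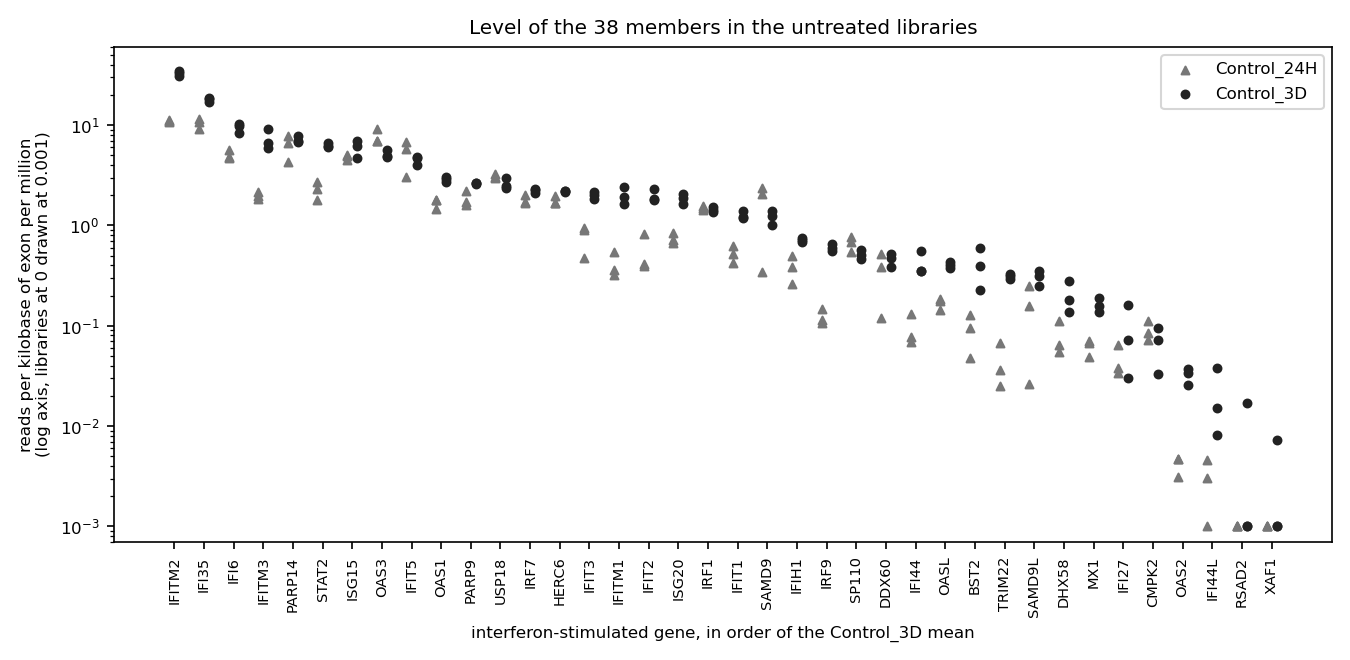
Level of the 38 members in the untreated libraries, as RPKM on a log axis. Each point is 1 library (triangles, control at 24 h; circles, control at 3 days), genes are ordered by the mean of the control at 3 days, and libraries with 0 reads are drawn at 0.001. IFITM2 and IFI35 lie at the left with means of 33.0 and 17.9 at 3 days, and RSAD2 and XAF1 at the right.

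With SP some members rose and others fell, as did genes over the whole table. Several of the counts below are near the shares over all genes. At 24 h, 8 members rose and 6 fell of the 32 tested, where 16.8% and 12.0% of all genes did. At 3 days 7 rose and 10 fell of 33 (all genes, 25.2% and 23.3%), and at 12 days 11 rose and 12 fell (26.4% and 23.4%). At 3 h, 2 rose (7.39% of all genes) and 0 fell (4.11%), and in edgeR 9 members had an unadjusted p under 0.05, while DESeq2 called 3 higher and 3 lower. The median log2 fold change of the tested members was 0.02 at 3 h, 0.08 at 24 h, −0.12 at 3 days and −0.03 at 12 days, against medians over all genes of 0.00, −0.01, −0.02 and 0.00. With offsets for GC content and transcript length the medians over all genes became −0.07, −0.14, −0.13 and −0.11, and the share of all calls that were higher went from 64.3% to 46.1%, from 58.3% to 34.9%, from 52.0% to 37.3% and from 53.0% to 39.9%. Members higher and lower were then 2 and 3 at 3 h, 7 and 8 at 24 h, 7 and 14 at 3 days and 8 and 14 at 12 days.

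At the thresholds of the study, 3 members were higher at 3 days, ISG15, IFI6 and OASL (all genes, 6.58%), and 1 was lower, IFIT2 (1.86%). At 12 days 4 were higher, ISG15, IFI6, IFIT1 and SAMD9 (6.88%), and 0 lower (2.23%), with 0 lower by DESeq2 as well and 26 members at an unadjusted p under 0.05. The number higher at 12 days stayed at 4 with DESeq2, with RLE factors and without the filter. It was 3 with a replicate block, 1 with GC and length offsets, 0 with the 2 groups alone and 1 to 4 without 1 library. At 24 h edgeR called 0 members in either direction (all genes, 0.622% higher and 0.0633% lower). There 17 members had an unadjusted p under 0.05 and DESeq2 called 5 higher and 0 lower. At 3 h edgeR called 0 genes of the table at these thresholds in either direction (0% and 0%), and DESeq2 called 1 member higher and 0 lower. The libraries of SP and control did not overlap for 11 members at 3 h, 6 of them above and 5 below (all genes, 27.3%). At 24 h 11 were above and 6 below (44.4%), at 3 days 10 and 14 (61.2%), and at 12 days 11 and 13 (55.9%).

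Of the 32 members tested in both tables, 5 rose at 24 h, 3 days and 12 days alike, ISG15, IFIT1, OASL, BST2 and IFI6, and 5 fell at all of these times, USP18, IFIT3, PARP9, PARP14 and IFI35. With the replicate number as a block at 24 h the IFIT3 call was lost (−0.75, adjusted p = 0.0621, edgeR), which leaves 4 that fell. The calls of BST2 at 12 days and of PARP9 and IFIT3 at 24 h were also lost when certain single libraries were left out, as given with these genes. Among the 16654 genes tested in both tables, 11.1% rose and 6.53% fell at all of these times. The comparisons at 3 and 12 days share their control libraries, as do those at 3 h and 24 h, so the values at both times of a table are not independent.

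**Figure D3:**
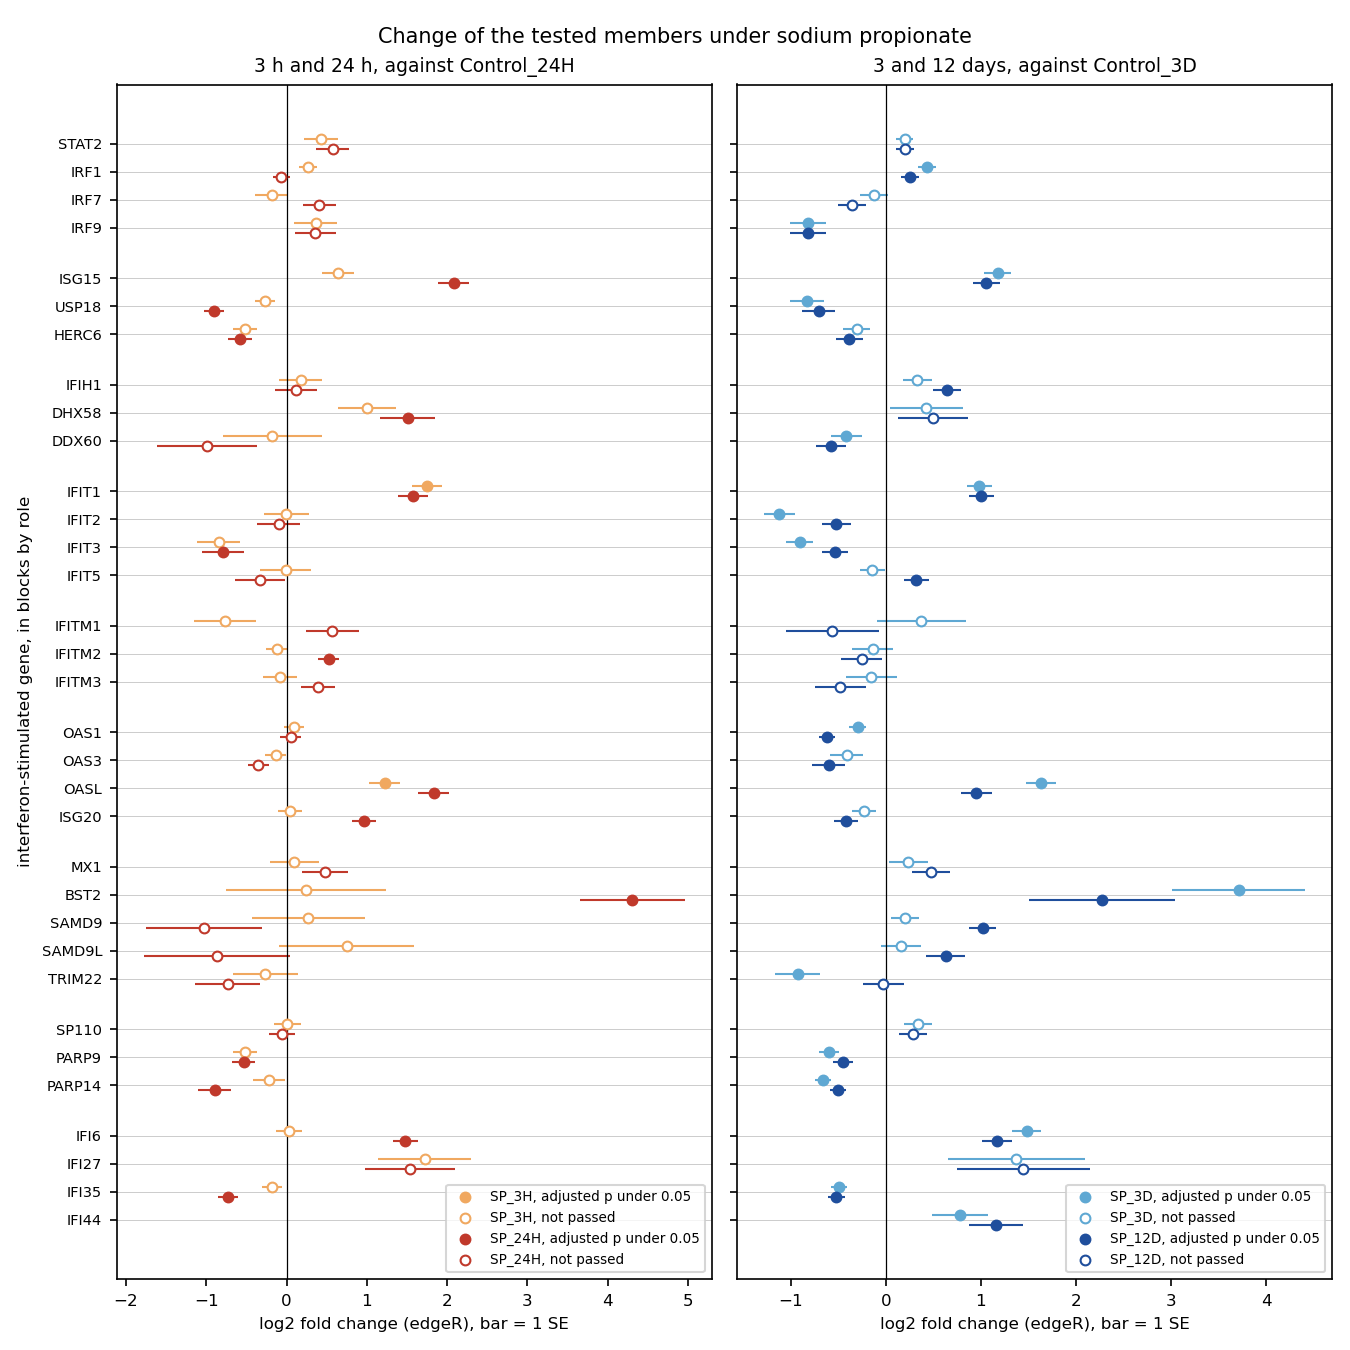
Log2 fold change of the 33 members tested in at least 1 table, with bars of 1 SE from edgeR (3 libraries a group). The left panel gives SP 3 h and SP 24 h against the control at 24 h, the right panel SP 3 and 12 days against the control at 3 days, and filled points passed an adjusted p of 0.05. BST2 lies farthest to the right in both panels, ISG15, IFIT1, OASL and IFI6 are right of 0, and USP18, PARP9, PARP14, IFI35 and IFIT3 are left of 0.

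Among the transcription factors that carry the interferon signal, the values differed from gene to gene. IRF9, the DNA-binding subunit of ISGF3, fell by 0.82 ± 0.19 (SE, log2) at both 3 and 12 days, with adjusted p-values of 0.00242 and 0.00205 (edgeR). It had 3.57 to 4.2 CPM in the control at 3 days, 2.07 to 2.33 at SP 3 days and 1.85 to 2.59 at SP 12 days, without overlap. At 24 h its log2 difference was 0.36 (adjusted p = 0.321, edgeR). IRF1, an activator induced by interferon-γ, rose by 0.43 ± 0.09 at 3 days and 0.25 ± 0.09 at 12 days, and the latter call was lost without any 1 of 7 libraries of the table, at adjusted p-values of up to 0.137 (edgeR). DESeq2 gave an adjusted p of 0.0572 for IRF1 at 12 days. With GC and length offsets the IRF1 value at 12 days was 0.11 (adjusted p = 0.264) and that at 24 h was −0.40 (adjusted p = 0.0176), against −0.06 without them (edgeR). STAT2 and IRF7 did not pass the test in the comparisons with control. Their log2 differences were 0.42 and −0.19 at 3 h, 0.57 and 0.41 at 24 h, 0.20 and −0.12 at 3 days, and 0.20 and −0.36 at 12 days. With the offsets IRF7 was lower at 3 days (−0.73, adjusted p = 0.000682) and 12 days (−0.84, adjusted p = 0.000228, edgeR). IRF7 also passed as lower at 12 days without SP 12 days replicate 1 or replicate 3 (edgeR). Of the exon bases of IRF1 and IRF9, 22.9% and 27.2% overlap other annotated genes, and reads there may belong to either since the counting is not stated to use strand.

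ISG15, a ubiquitin-like protein that is joined to other proteins after interferon, was higher at 24 h and after. The control libraries at 24 h had 3.86, 4.39 and 4.24 CPM, the SP 3 h libraries 5.36, 6.29 and 7.74, and the SP 24 h libraries 14.3, 17.1 and 21.5. In the other table the controls had 5.31, 4.07 and 6.03, SP 3 days 11.6, 11.2 and 12.1, and SP 12 days 10.6, 10.6 and 10.9 CPM. Every SP library of both tables stood above every control of its table, and SP 24 h above SP 3 h. The fold change was 4.23 at 24 h (log2 2.08 ± 0.19, adjusted p = 0.000133, edgeR), 2.26 at 3 days (1.18 ± 0.14, adjusted p = 5.04e-06) and 2.08 at 12 days (1.06 ± 0.14, adjusted p = 1.37e-05). At 3 h the log2 difference was 0.64 ± 0.20 with an adjusted p of 0.0651 (edgeR). DESeq2 gave 0.62 with an adjusted p of 0.0493 for it.

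USP18, the protease that removes ISG15 from its targets and also restrains the type I interferon receptor, moved the other way. It fell by 0.90 ± 0.13 (log2) at 24 h, 0.83 ± 0.17 at 3 days and 0.71 ± 0.17 at 12 days, with adjusted p-values of 0.000958, 0.00102 and 0.00282 (edgeR). Its control libraries had 12.1 to 13.3 CPM at 24 h and 9.59 to 12.3 at 3 days, and the SP libraries 6.32 to 7.40 at 24 h, 4.76 to 7.42 at 3 days and 5.54 to 7.68 at 12 days. No SP library of these 3 groups reached its controls. The ligase HERC6 fell by 0.58 ± 0.15 at 24 h and by 0.38 ± 0.15 at 12 days. Its adjusted p was 0.0175 at 24 h and up to 0.0668 without 1 library, and 0.0388 at 12 days and up to 0.107 (edgeR).

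Among the cytoplasmic RNA sensors of the RIG-I family, IFIH1 (MDA5), which senses long double-stranded RNA, rose at 12 days by 0.64 ± 0.15 (adjusted p = 0.00197, edgeR), from 3.59 to 3.88 CPM in the control to 5.50 to 6.29. DHX58 (LGP2), a regulator of these sensors, rose at 24 h, where the control libraries had 0.212 to 0.423 CPM and the SP libraries 0.709 to 0.931. Over 19 control and 82 SP reads the ratio was 2.89 with a 95% counting interval of 1.74 to 5.05. DDX60, a cofactor, fell by 0.42 ± 0.16 at 3 days and 0.58 ± 0.16 at 12 days. The call at 3 days was lost without any 1 of 6 libraries, at adjusted p-values of up to 0.17 (edgeR). It was also lost with RLE size factors (adjusted p = 0.0505, edgeR), without the filter (adjusted p = 0.0712, edgeR) and with DESeq2 (adjusted p = 0.0777).

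The IFIT proteins bind viral RNA, and their genes lie side by side on chromosome 10. IFIT1, which recognises RNA caps that lack methylation, was higher at every time. The control libraries at 24 h had 2.38, 2.91 and 1.96 CPM, SP 3 h 7.05, 8.40 and 8.64, and SP 24 h 6.27, 7.68 and 7.46. The controls at 3 days had 6.46, 5.58 and 5.50 CPM, SP 3 days 11.8, 10.4 and 12.6, and SP 12 days 12.8, 11.1 and 11.4. SP and control libraries did not overlap in any of the 4 comparisons, and the earliest SP libraries, at 3 h, already stood above all controls of their table. The fold change was 3.35 at 3 h (adjusted p = 0.00095, edgeR), 2.98 at 24 h, 1.97 at 3 days and 2 at 12 days, and its level at 24 h did not differ from that at 3 h by test (log2 −0.17 ± 0.17, adjusted p = 0.499, edgeR).

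IFIT2 and IFIT3, which form complexes with IFIT1, fell in the later table. For IFIT2 the controls at 3 days had 9.90, 7.71 and 7.86 CPM, SP 3 days 3.60, 4.02 and 4.13, and SP 12 days 6.70, 5.99 and 5.23. All SP libraries were below all controls, with SP 12 days between the other groups. The fall was 2.17-fold at 3 days (log2 −1.12 ± 0.16, adjusted p = 3.11e-05, edgeR) and 1.43-fold at 12 days (−0.52 ± 0.15, adjusted p = 0.00944). Without 1 control library, replicate 1, the value at 12 days was −0.39 with an adjusted p of 0.0788 (edgeR). In the earlier table IFIT2 had 1.69, 3.54 and 1.79 CPM in the control, 2.33, 2.30 and 2.32 at SP 3 h, and 2.02, 2.10 and 2.36 at SP 24 h, and the groups overlapped. IFIT3 fell by 0.91 ± 0.14 at 3 days and 0.54 ± 0.14 at 12 days. At 24 h it fell by 0.79 ± 0.26, but the libraries overlapped, and the adjusted p of 0.0481 became 0.0621 with the replicate number as a block (log2 −0.75) and up to 0.142 without 1 library (edgeR). IFIT5 rose at 12 days by 0.32 ± 0.13 with overlapping libraries, and without 1 library the adjusted p was up to 0.295 (edgeR). That call was also lost with DESeq2 (adjusted p = 0.0579) and with the GC and length offsets (adjusted p = 0.0688, edgeR). Of the exon bases of IFIT2, 13.6% overlap other genes.

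The IFITM proteins block the fusion of viral and cellular membranes. Among them IFITM2 rose at 24 h by 0.52 ± 0.13 (log2, adjusted p = 0.0168, edgeR), from 17.3 to 18.2 CPM in the control to 23.3 to 27.4. Without 1 library the adjusted p was up to 0.0739 (edgeR). With the offsets IFITM2 at 24 h was 0.23 (adjusted p = 0.126, edgeR). IFITM1 and IFITM3 did not pass in the comparisons with control, though with the offsets IFITM3 was lower at 12 days (−0.54, adjusted p = 0.0398, edgeR). At 24 h their log2 differences were 0.57 and 0.39, at 3 days 0.38 and −0.15, and at 12 days −0.56 and −0.48. At 12 days replicate 3 stood apart from the other SP libraries. It had 4.39 CPM of IFITM1 against 0.885 and 1.20, and 61.5 CPM of IFITM2 against 31.1 and 40.1. Without SP 12 days replicate 3, IFITM1, IFITM2 and IFITM3 all passed the test as lower at 12 days (edgeR). With single libraries left out in turn, the log2 difference at 12 days ranged from −1.67 to −0.25 for IFITM1. The range was −0.59 to −0.08 for IFITM2 and −0.84 to −0.28 for IFITM3. The 3 genes are close paralogs, and 31.6% of the exon bases of IFITM1 and 16.3% of those of IFITM3 overlap other annotated genes, so the split of reads between them is uncertain.

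The oligoadenylate synthetases make the second messenger that activates the nuclease RNase L, and OASL is a relative without that activity which aids RIG-I signalling. OASL was higher at every time. Control libraries at 24 h had 1.16, 0.898 and 1.12 CPM, SP 3 h 2.26, 2.34 and 2.85, and SP 24 h 3.80, 3.54 and 4.09. Controls at 3 days had 2.39, 2.76 and 2.54 CPM, SP 3 days 8.05, 7.56 and 8.14, and SP 12 days 4.68, 4.54 and 5.58. No SP library overlapped its controls, and SP 12 days lay between the control and SP 3 days. The fold change was 2.33 at 3 h (adjusted p = 0.00448, edgeR), 3.56 at 24 h (adjusted p = 0.00019), 3.09 at 3 days (adjusted p = 5.52e-07) and 1.94 at 12 days (adjusted p = 0.000156).

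Of the catalytic synthetases, OAS1 fell by 0.30 ± 0.08 at 3 days and 0.62 ± 0.09 at 12 days (adjusted p = 0.00847 and 1.94e-05, edgeR), from 35.5 to 39.8 CPM in the control to 29.9 to 31.2 and then 24.1 to 25.2. OAS3 fell at 12 days by 0.60 ± 0.18, and without control replicate 3 the value was −0.53 with an adjusted p of 0.0680 (edgeR). With the offsets OAS3 was also lower at 24 h (−0.71, adjusted p = 0.000655, against −0.35) and at 3 days (−0.69, adjusted p = 0.0124, against −0.41, edgeR). ISG20, an exonuclease that degrades viral RNA, rose at 24 h by 0.96 ± 0.15 (adjusted p = 0.00162, edgeR) and fell at 12 days by 0.42 ± 0.13 (adjusted p = 0.0113, and 0.0541 without control replicate 3). Its controls had 4.84 to 5.97 CPM at 24 h and 11.8 to 14.7 at 3 days, with 8.82 to 11.6 at SP 24 h and 8.41 to 11.1 at SP 12 days. SP and control libraries did not overlap in either comparison. It was the only member that passed in opposite directions in the 2 tables.

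BST2 (tetherin), which holds budding virus at the cell surface, had the largest fold change among tested members at 24 h, 3 days and 12 days, from few reads. The control libraries at 24 h held 1, 2 and 4 reads, SP 3 h 0, 9 and 0, and SP 24 h 44, 105 and 69. The controls at 3 days held 9, 4 and 11 reads, SP 3 days 79, 106 and 108, and SP 12 days 17, 15 and 101. SP and control did not overlap in CPM at 24 h, 3 days or 12 days, and at 12 days 1 library, replicate 3, stood at 4.48 CPM against 1.07 and 0.748. Over the summed reads the ratio of normalized levels was 20.9 (95% counting interval, 9.96 to 52.5) at 24 h, 13.3 (8.74 to 21.0) at 3 days and 5.10 (3.29 to 8.24) at 12 days. The fitted log2 fold changes were 4.31 ± 0.65, 3.71 ± 0.70 and 2.28 ± 0.77, with adjusted p-values of 0.00137, 0.00225 and 0.036 (edgeR). At 12 days the log2 fold change was 0.98 without SP replicate 3 (adjusted p = 0.0468), and the call was lost without any 1 control library, at 2.24, 2.01 and 2.61 with adjusted p-values of 0.110, 0.104 and 0.0649 (edgeR). The counting intervals do not cover the spread between libraries.

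SAMD9, a restriction factor of poxviruses, was higher at 12 days. The controls at 3 days had 8.51, 9.65 and 6.86 CPM, SP 3 days 10.8, 8.71 and 9.21, and SP 12 days 18.9, 17.0 and 14.9. The 3 SP libraries at 12 days stood above the other 6, which overlapped each other. The fold change was 2.03 (log2 1.02 ± 0.14, adjusted p = 2.26e-05, edgeR). In the earlier table the libraries of a group were far apart, with 14, 16.2 and 2.35 CPM in the control, 8.47, 6.39 and 24.0 at SP 3 h, and 8.21, 4.41 and 3.28 at SP 24 h, and no difference could be called (24 h, log2 −1.03 ± 0.72, adjusted p = 0.31, edgeR). Its neighbour and paralog SAMD9L showed a similar spread there, with 0.210 CPM in control replicate 3 against 1.27 and 2.01. SAMD9L rose at 12 days by 0.63 ± 0.20 (adjusted p = 0.0166, edgeR). That call was lost without control replicate 1 (0.49, adjusted p = 0.0982) or SP 12 days replicate 1 (0.51, adjusted p = 0.0784). It was also lost with the GC and length offsets (0.49, adjusted p = 0.0558, edgeR).

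TRIM22, an antiviral ubiquitin ligase, fell by 0.93 ± 0.24 at 3 days (adjusted p = 0.00455, edgeR), from 3.66 to 4.07 CPM to 1.65 to 2.33, and had a log2 difference of −0.03 at 12 days. The GTPase MX1 passed in no comparison, with log2 differences of 0.10 at 3 h, 0.48 at 24 h, 0.24 at 3 days and 0.47 at 12 days. CMPK2 and RSAD2, adjacent genes of nucleotide antiviral pathways, had too few reads for the filter. CMPK2 had 27 reads over the control libraries at 24 h, 3 at SP 3 h and 15 at SP 24 h, against 15, 25 and 22 in the other table.

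**Figure D4:**
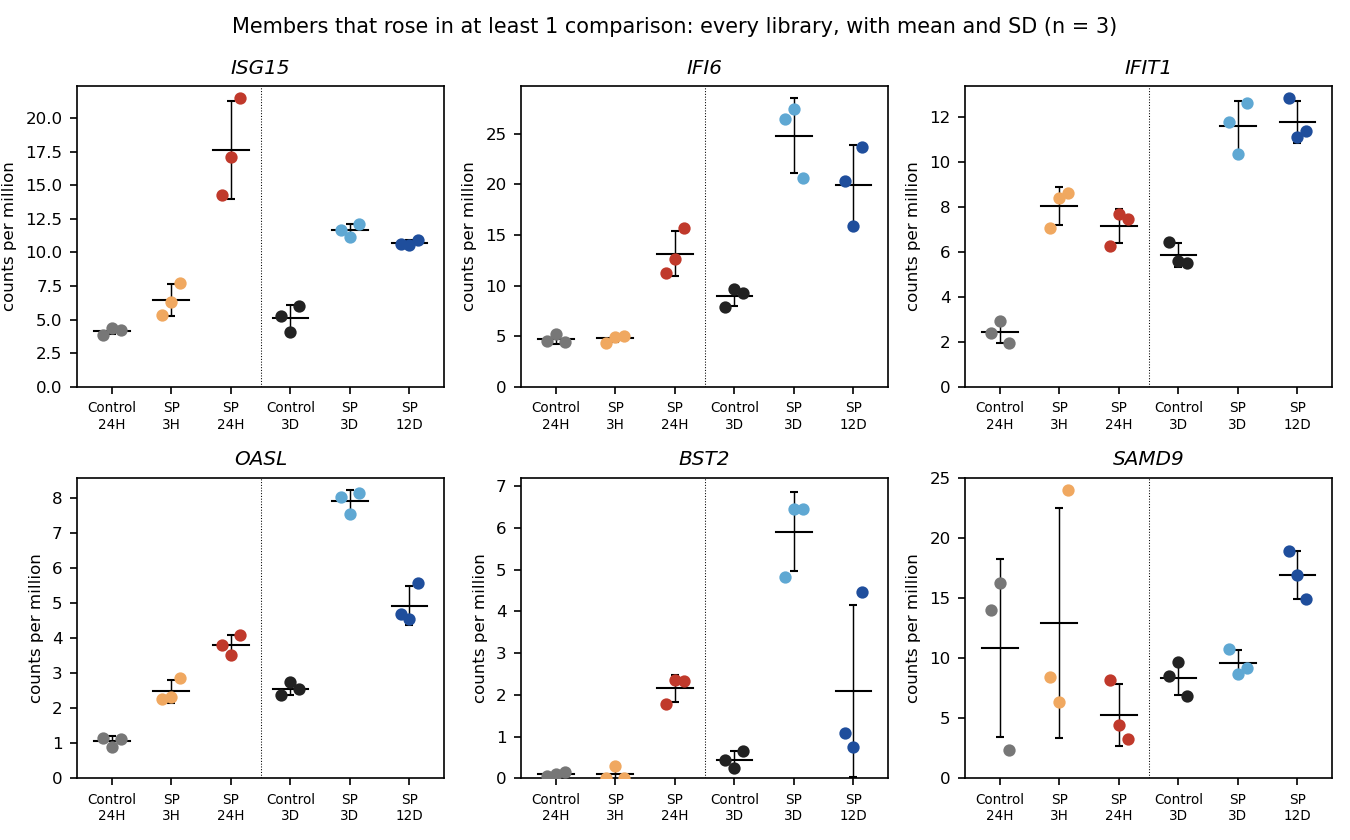
CPM of ISG15, IFI6, IFIT1, OASL, BST2 and SAMD9 in every library. Points are libraries, bars the mean and SD of 3, and the dotted line separates the 2 tables. ISG15, IFI6, IFIT1 and OASL lie above their controls from 24 h on. ISG15, IFIT1 and OASL lie above them already at 3 h, where ISG15 did not pass the test. The SAMD9 libraries at 3 h and 24 h are widely spread.

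PARP9 and PARP14 belong to the ADP-ribosyl transferase family, and PARP9 acts with the ligase DTX3L in interferon signalling. Both fell at 24 h, 3 days and 12 days. PARP14 fell by 0.89 ± 0.20, 0.66 ± 0.09 and 0.50 ± 0.08 (adjusted p = 0.0107, 1.11e-05 and 0.000154, edgeR). Its controls had 68.3, 80.5 and 44.1 CPM at 24 h and 69.2, 79.5 and 71.0 at 3 days, and SP had 29.7 to 39.1 at 24 h, 42.7 to 49.3 at 3 days and 50.9 to 53.3 at 12 days. SP libraries were below all controls of their table. PARP9 fell by 0.53 ± 0.15, 0.59 ± 0.10 and 0.45 ± 0.10 (adjusted p = 0.0232, 0.000215 and 0.00175, edgeR), and the call at 24 h was lost without control replicate 2, SP 24 h replicate 1 or SP 24 h replicate 3, at −0.40 to −0.52 and adjusted p-values of up to 0.0893 (edgeR). At 3 h its libraries were already below the controls, with a log2 difference of −0.52 and an adjusted p of 0.0503 (edgeR). Of PARP9, 1.6% of the exon bases overlap DTX3L. SP110, a nuclear body protein, passed in no comparison, with log2 differences between −0.05 and 0.34.

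Of the remaining genes, IFI6 had controls at 24 h of 4.50, 5.23 and 4.42 CPM, SP 3 h libraries of 4.37, 4.96 and 5.01, and SP 24 h libraries of 11.2, 12.6 and 15.6. The controls at 3 days had 7.89, 9.65 and 9.22 CPM, SP 3 days 26.4, 27.4 and 20.6, and SP 12 days 20.3, 15.9 and 23.7. SP 3 h overlapped its control, and every later SP library was above. The fold change was 2.79 at 24 h (adjusted p = 0.000261, edgeR), 2.79 at 3 days (adjusted p = 1.54e-06) and 2.25 at 12 days (adjusted p = 1.62e-05). Of its exon bases 23.1% overlap LINC02574 on the same strand.

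IFI35 fell by 0.73 ± 0.12 at 24 h, 0.49 ± 0.09 at 3 days and 0.52 ± 0.09 at 12 days (adjusted p = 0.00262, 0.000285 and 0.000161, edgeR), from 18 to 22.6 CPM in the control to 12.1 to 12.6 at 24 h, and from 33.0 to 36.6 to 24.1 to 25.9 at 3 days and 23.0 to 25.4 at 12 days. IFI44 rose by 0.78 ± 0.30 at 3 days and 1.16 ± 0.28 at 12 days from 45 reads over the controls. The call at 3 days (adjusted p = 0.0381) was lost without any 1 of 5 libraries, at adjusted p-values of up to 0.136 (edgeR). It was also lost without the filter (adjusted p = 0.0630, edgeR) and with DESeq2 (adjusted p = 0.0871). IFI27 had log2 differences of 1.37 to 1.72 in the 4 comparisons with control and passed in none of them, but passed in all 4 when no filter on low counts was set, at adjusted p-values of 0.0022 to 0.0494 (edgeR). With the replicate number as a block its value at 24 h was 1.44 with an adjusted p of 0.0352 (edgeR), and it had 12 reads over the controls. IFI44L had 12 reads over the controls at 3 days, 17 at SP 3 days and 41 at SP 12 days.

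**Figure D5:**
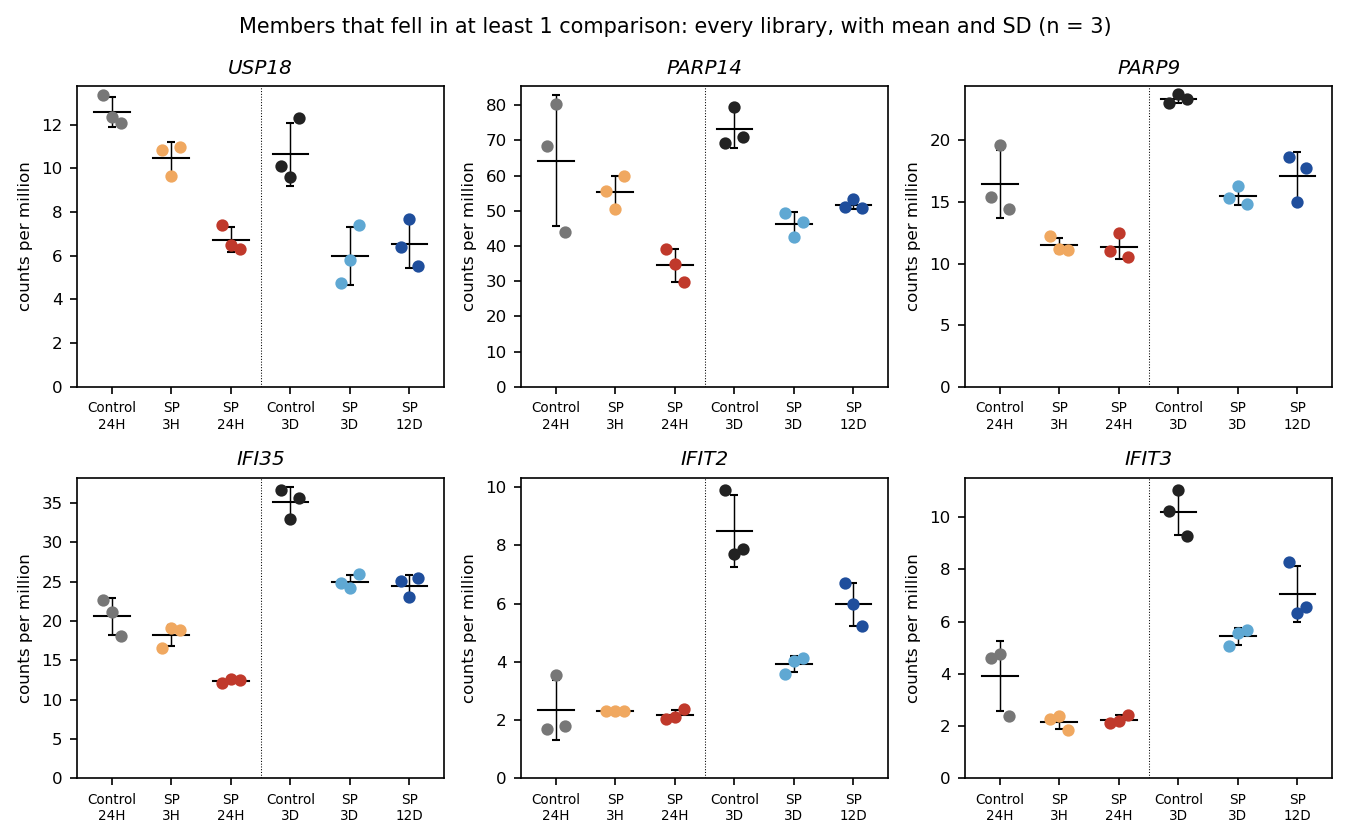
CPM of USP18, PARP14, PARP9, IFI35, IFIT2 and IFIT3 in every library, with the mean and SD of 3 libraries. The dotted line separates the 2 tables. USP18, PARP14, PARP9 and IFI35 lie below their controls at 24 h, 3 days and 12 days, and IFIT2 only at 3 and 12 days.

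The levels at the 2 SP times of a table were compared directly. From 3 h to 24 h, 7 members rose and 3 fell (all genes, 11.7% and 8.40%). ISG15 rose further by 1.44 ± 0.19 (log2), IFI6 by 1.45 ± 0.16, ISG20 by 0.92 ± 0.15, OASL by 0.61 ± 0.17 and IFITM2 by 0.65 ± 0.13. BST2 rose by 4.06 ± 0.62, at 3.46 without SP 3 h replicate 3 and 8.79 without SP 3 h replicate 2, the only library of that group with BST2 reads. IFITM1 rose by 1.34 ± 0.35 and had 27 reads over SP 3 h. USP18 fell by 0.64 ± 0.13, PARP14 by 0.68 ± 0.20 and IFI35 by 0.55 ± 0.12. Without 1 library, adjusted p-values reached 0.117 for IFITM1, 0.122 for OASL, 0.15 for PARP14 and 0.0564 for IFI35 (edgeR). From 3 to 12 days, 4 rose (all genes, 4.46%) and 2 fell (3.65%). SAMD9 rose by 0.82 ± 0.14, TRIM22 by 0.90 ± 0.24, IFIT2 by 0.60 ± 0.16 and IFIT5 by 0.46 ± 0.13, while OASL fell by 0.68 ± 0.15 and OAS1 by 0.32 ± 0.09. Leaving out 1 library, adjusted p-values rose to as much as 0.154 for TRIM22, 0.175 for IFIT2, 0.243 for IFIT5, 0.09 for OAS1 and 0.0501 for OASL, and that of SAMD9 stayed at or under 0.0268 (edgeR).

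Upstream of the members, interferon transcripts were scarce. Of 10 interferon genes on a list of the pathway, IFNA2, IFNB1 and IFNG had 0 reads in all 18 libraries. For the control at 3 days and SP 3 days, 3 reads over the group would equal 0.0564 and 0.0602 CPM. IFNE, an epithelial interferon, was the only one that passed the filter, and it fell by 1.05 ± 0.29 at 3 days and 0.89 ± 0.28 at 12 days (adjusted p = 0.00753 and 0.0153, edgeR). IFNA1, which was not tested, had 39 reads over the controls at 3 days, 5 at SP 3 days and 14 at SP 12 days. In the other table it had 13 reads over the controls, 20 at SP 3 h and 7 at SP 24 h. All 6 receptor genes were tested, and 3 rose at 24 h (all genes, 16.8%), 2 at 3 days (25.2%) and 2 at 12 days (26.4%). IFNGR1, the ligand-binding chain for interferon-γ, rose by 0.46 ± 0.14 at 24 h, 0.97 ± 0.11 at 3 days and 1.16 ± 0.11 at 12 days. IFNLR1, the type III receptor, rose by 0.65 ± 0.17, 0.69 ± 0.13 and 0.49 ± 0.13, while the type I receptor genes IFNAR1 and IFNAR2 passed in none.

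Of 5 genes of the JAK-STAT relay, 0 rose and 0 fell at 24 h (all genes, 16.8% and 12.0%). At 3 days 1 rose and 3 fell (25.2% and 23.3%), and at 12 days 1 rose and 3 fell (26.4% and 23.4%). Values are given at 3 days and 12 days. JAK2 fell by 0.94 ± 0.14 and 0.72 ± 0.14, TYK2 by 0.27 ± 0.08 and 0.23 ± 0.08, and STAT3 rose by 0.33 ± 0.08 and 0.34 ± 0.07. Of 6 inhibitors, 1 rose and 1 fell at 24 h, 3 rose and 2 fell at 3 days, and 1 rose and 3 fell at 12 days. The shares over all genes are those just given. SOCS1, which blocks JAK kinases, rose by 1.54 ± 0.33 at 24 h, 2.19 ± 0.30 at 3 days and 1.83 ± 0.30 at 12 days, from 0.551 and 0.496 CPM in the controls. SOCS3 rose by 0.72 ± 0.18 at 3 h and 0.49 ± 0.13 at 3 days and fell by 0.34 ± 0.13 at 12 days. Of 8 nucleic acid sensing genes, 1 rose and 1 fell at 24 h, 2 rose and 2 fell at 3 days, and 1 rose and 2 fell at 12 days. These counts stand against the same shares over all genes (16.8% and 12.0%, 25.2% and 23.3%, 26.4% and 23.4%). TLR3 fell by 1.84 ± 0.43, 1.16 ± 0.21 and 1.05 ± 0.20 at 24 h, 3 days and 12 days. STING1, the adaptor of cytosolic DNA sensing, rose by 2.69 ± 0.46 at 24 h and 0.48 ± 0.16 at 3 days and fell by 0.66 ± 0.17 at 12 days.

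A list of 27 other interferon-stimulated genes held calls in both directions. At 24 h 4 rose and 6 fell of 22 tested (all genes, 16.8% and 12.0%), at 3 days 8 rose and 9 fell of 24 (25.2% and 23.3%), and at 12 days 8 rose and 6 fell (26.4% and 23.4%). At 3 h 3 rose and 2 fell of 22 (7.39% and 4.11%). Several of these counts are near the shares over all genes. UBE2L6, the enzyme that hands ISG15 on to its ligases, rose in all 4 comparisons by 0.44 ± 0.12, 1.29 ± 0.12, 0.79 ± 0.10 and 0.70 ± 0.10. DTX3L, the partner of PARP9, fell in all 4, by 1.05 ± 0.14, 1.01 ± 0.14, 0.84 ± 0.09 and 0.75 ± 0.09. NMI, which binds IFI35, fell by 1.49 ± 0.21 at 24 h, 1.16 ± 0.14 at 3 days and 1.18 ± 0.14 at 12 days. GBP2, a guanylate-binding protein, rose by 0.85 ± 0.27, 1.29 ± 0.15 and 1.29 ± 0.15, while GBP3 fell by 1.21 ± 0.37 at 24 h and 1.06 ± 0.15 at 3 days. The immunoproteasome subunits also differed, PSMB9 rising at 3 h, 3 days and 12 days (0.55 ± 0.15, 0.83 ± 0.15 and 0.48 ± 0.16) and PSMB8 falling at 24 h, 3 days and 12 days (by 0.53 ± 0.12, 0.39 ± 0.10 and 0.36 ± 0.10). These genes passed an adjusted p of 0.05 in edgeR at each time for which a rise or fall is given.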

How the data were processed

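Per the labels, total RNA was isolated with the miRNeasy kit and libraries were made with the NEBNext Ultra RNA kit. The submitters' processing notes name FastQC, STAR 2.7.9a, featureCounts, R 4.2.1 and DESeq2 1.36.0, with GRCh38 as the build. The deposited values are raw counts per Ensembl gene, without normalization. Whether counting used strand, and how it treated reads matching several genes, is not given in the sources used here.

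All tests used edgeR 4.0.16 under R 4.3.3. Low genes were removed by filterByExpr at a minimum count of 10. Each table of 9 libraries was fitted as 1 robust quasi-likelihood model by group, with TMM factors of 0.957 to 1.04, with Benjamini-Hochberg adjustment across every tested gene. Alternatives were RLE factors, DESeq2 1.42.0, no filter, the 2 groups compared alone, a replicate block, GC and length offsets, and leaving out each library. Median SEs (log2 fold change, all tested genes) were 0.20 in the table of 3 h and 24 h and 0.13 in the other. Scripts were tested on simulated data. RPKM used the GENCODE exon length. Counting intervals (exact binomial, 95%) cover counting error only.

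Members, lists and tests were chosen with earlier results of these data known. Members past the thresholds of the study in a comparison with control, at a mean of 20 reads or more in either group, are given in every library, and BST2 was added after its values were seen. The others are given by range and counts. Pathway genes with a rise or fall are named at the same minimum where they passed 0.05. Some genes of the lists are not reported here.

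Deviations of the control at 24 h and SP 24 h libraries that share a replicate number had correlations of 0.499, 0.17 and 0.504. For replicate 2 the value was close to the 0.175 of SP 24 h replicate 2 with control replicate 3. Libraries with unlike numbers also reached 0.576 (SP 3 h replicate 3 with control replicate 1) and 0.519 (SP 3 h replicate 2 with control replicate 3). The main tests used group only and were not paired, and the replicate number entered as a block only as an alternative. Besides the blocked values given with the genes and below, the block changed these calls (edgeR). DDX60 (−0.41, adjusted p = 0.0575) and IFI44 (0.78, adjusted p = 0.0539) were lost at 3 days. PARP14 was lost from 3 h to 24 h (−0.70, adjusted p = 0.0511). IFITM3 passed at 12 days (−0.51, adjusted p = 0.00185) and IFI27 at 3 h (1.63, adjusted p = 0.0493). IRF7 passed from 3 h to 24 h (0.60, adjusted p = 0.0219) and BST2 from 3 to 12 days (−1.66, adjusted p = 0.0328).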

Additional observations from a re-analysis of the deposited data

Results flagged for a closer look

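The levels at the earlier and the later SP time of a table differed, by a test of that difference itself (edgeR), for 16 member and time combinations. Log2 differences are the later minus the earlier time, and no explanation was weighed. Between 3 h and 24 h, ISG15 differed by 1.44, IFI6 by 1.45, BST2 by 4.06, IFITM1 by 1.34, ISG20 by 0.92, IFITM2 by 0.65 and OASL by 0.61, and USP18 by −0.64, PARP14 by −0.68 and IFI35 by −0.55. Adjusted p-values lay between 0.000802 for IFI6 and 0.0438 for PARP14 (edgeR). Between 3 and 12 days, TRIM22 differed by 0.90, SAMD9 by 0.82, IFIT2 by 0.60 and IFIT5 by 0.46, and OASL by −0.68 and OAS1 by −0.32. Adjusted p-values lay between 0.00224 for SAMD9 and 0.0394 for IFIT5 (edgeR).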

How the results depend on the processing

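No called value of a member reversed its direction under the alternatives run. At 3 h, members lower numbered 0, but 2 with RLE factors, 3 with DESeq2, 2 without the filter and 3 with GC and length offsets, and at the study's thresholds 1 was higher (main value 0) with DESeq2, without the filter and with the offsets. At 24 h, members higher at the study's thresholds went from 0 to 5 with DESeq2, 5 without the filter and 1 with the offsets. From 3 h to 24 h, 3 lower became 5 with the offsets. At 12 days, 4 higher at the study's thresholds became 1 with the offsets and 0 with the 2 groups alone. From 3 to 12 days, 4 higher became 2 with the offsets and 1 with the 2 groups alone, and 2 lower became 1 without the filter. With the offsets HERC6 and ISG20 were also lower at 3 days (−0.40, adjusted p = 0.0358, and −0.48, adjusted p = 0.00176, edgeR). Over all genes, calls at 3 h went from 1999 to 973 with the 2 groups alone and 3119 with the offsets, and from 3 to 12 days from 1440 to 933 with the 2 groups alone. The cause was not tested.

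With a replicate block, members at 3 h were 4 higher and 1 lower, and at 3 days 0 were lower at the study's thresholds (main value 1). With block and offsets together, 4 were lower at 3 h, 1 was higher at 24 h at the study's thresholds, 5 were lower from 3 h to 24 h, 0 were lower at 3 days and 0 higher at 12 days at the study's thresholds, and 1 was higher from 3 to 12 days. Outside SP 24 h against control, numbers did not pair libraries (correlations of −0.593 to 0.377), so samples shared only a number there. For SP 24 h against control the correlations do not settle whether numbers pair libraries, since some unlike numbers were as high. With the block STAT2 passed at 3 and 12 days (0.20 and 0.20, adjusted p = 0.0430 and 0.0430, edgeR), and ISG15 (0.62) and PARP9 (−0.51) at 3 h. Without the filter STAT2 passed at 24 h (0.58, adjusted p = 0.0204, edgeR).

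Without 1 library, members higher and lower ranged from 2 to 3 and 0 to 2 at 3 h, 7 to 9 and 3 to 6 at 24 h, 6 to 10 and 9 to 12 at 3 days, and 7 to 12 and 9 to 15 at 12 days. At the study's thresholds they ranged from 3 to 4 and 0 to 1 at 3 days and from 1 to 4 and 0 to 1 at 12 days, and stayed at 0 at 3 h and 24 h. Between times they ranged from 5 to 7 and 1 to 3 (3 h to 24 h), and from 1 to 5 and 0 to 7 (3 to 12 days). Reads per group limit members such as BST2, DHX58, IFI27, IFI44, IFITM1 and TRIM22.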
